A study of Mus musculus with 7 samples.

Results

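Retinoic acid, a derivative of vitamin A, acts on cells through a small set of genes for its synthesis, its transport and its receptors. Of 8 such genes that were looked up by symbol (Crabp1, Crabp2, Rdh10, Rara, Rarb, Rarg, Rxra and Rxrb), 6 had a value among the 11642 genes or joined genes of the expression data. The expression of Crabp1 and Rarb was not analysed here. The family was put forward because Crabp2 was lower after depletion of lnc-SMaRT in these same samples, so the members were chosen by RPKM values of the same contrast, and their differences between the groups are given as a description. Where a member is said to have passed a threshold in the fit over all genes, this restates that choice.

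The values came from C2C12 cells, a line of mouse myoblasts that stop dividing and fuse into myotubes when serum is lowered. Total RNA was sequenced at day 2 of differentiation from 2 samples transfected with a scramble siRNA (si-SCR) and 2 samples transfected with siRNA #1 against the long non-coding RNA lnc-SMaRT (si-SMaRT). All 4 samples were of the same line, carried no other alteration that the labels give, and received 1 siRNA each, so that the effect of this siRNA and that of the loss of lnc-SMaRT cannot be told apart in them. RNA recovered with probes against lnc-SMaRT, with probes against LacZ as a control and from the input was sequenced in 1 library each. Expression is given as RPKM, the reads of a gene scaled to its length and to the size of the library, which allows levels of different genes to be set side by side.

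Inside the cell, retinol dehydrogenases such as RDH10 oxidize retinol to retinaldehyde, which retinaldehyde dehydrogenases convert to retinoic acid. The small binding protein CRABP2 carries retinoic acid to the nucleus, where a retinoic acid receptor (RAR) and a retinoid X receptor (RXR) sit on DNA as a pair and exchange corepressors for coactivators once the ligand is bound. Retinoic acid is known to promote the exit of myoblasts from the cell cycle and their differentiation, and RXR also pairs with other nuclear receptors, among them those for thyroid hormone and vitamin D.

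The sequence of the siRNA is shown because it defines the treated group.

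si-SMaRT siRNA #1: gagaagcagaacaaacagaua

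These 21 bases matched the sense strand of lnc-SMaRT at chrX:12340293-12340313 (GRCm38, minus strand), in the last exon of the gene that GENCODE names Gm14635 (chrX:12339782-12354996), at bases 878 to 898 of the 1409-base transcript Gm14635-202. Chromosome X held 1 match, and the other chromosomes were not searched. The targeted RNA measured 19.1 and 15.9 RPKM in si-SCR 1 and 2 and 2.88 and 3.65 RPKM in si-SMaRT 1 and 2. It was lower in both si-SMaRT samples, by a log2 fold change of -2.39 with a standard error (SE) of 0.28 and an adjusted p of 0.000882 (limma on log2(RPKM + 0.1), Benjamini-Hochberg over the 11086 genes whose mean reached 0.5 RPKM). All fold changes below are on this log2(RPKM + 0.1) scale, as si-SMaRT minus si-SCR, and the SE of each comes from the same fit. Its p-values measure the spread between 2 cultures a group.

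A pair of stretches of reference coding sequence are shown next, with G and C in capitals, because the base composition of the members went with how far the si-SMaRT replicates lay apart.

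Rdh10, coding bases 475 to 564 of Rdh10-201: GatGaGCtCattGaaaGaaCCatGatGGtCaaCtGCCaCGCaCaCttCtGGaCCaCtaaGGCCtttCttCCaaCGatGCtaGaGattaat

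Rara, coding bases 1 to 90 of Rara-203: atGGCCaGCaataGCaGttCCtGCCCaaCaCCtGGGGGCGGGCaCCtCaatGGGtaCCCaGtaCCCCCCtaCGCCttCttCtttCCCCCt

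G and C made up 45.6% of the 90 bases of Rdh10 and 61.1% of those of Rara. Each stretch was chosen for a content close to that of all exons of its gene, which was 45.7% for Rdh10 and 61.2% for Rara (GENCODE M21, GRCm38).

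Crabp2, the carrier (chr3:87948666-87953376, plus strand), measured 11.4 and 12.2 RPKM in si-SCR 1 and 2 and 3.08 and 3.86 RPKM in si-SMaRT 1 and 2. Both si-SMaRT samples lay far below both si-SCR samples, and the samples of each group lay close together. The means were 11.8 ± 0.556 RPKM in si-SCR and 3.47 ± 0.549 RPKM in si-SMaRT (SD, n = 2), a ratio of 0.294 and a log2 fold change of -1.75 (SE 0.28). The values rested on 191 and 228 reads in si-SCR and on 46 and 73 reads in si-SMaRT. Crabp2 was thus the member with the fewest reads. Its exons, at 1322 bases, were the shortest of the 6, and in si-SMaRT its RPKM was also the lowest.

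Rdh10, the enzyme of the first oxidation step (chr1:16105774-16133734, plus strand), measured 9.23 and 10.1 RPKM in si-SCR 1 and 2 and 12.4 and 15.1 RPKM in si-SMaRT 1 and 2. Here both si-SMaRT samples lay above both si-SCR samples. The means were 9.64 ± 0.580 RPKM in si-SCR and 13.7 ± 1.94 RPKM in si-SMaRT (SD, n = 2), with a ratio of 1.43 and a log2 fold change of 0.50 (SE 0.27). Between 486 and 900 reads stood behind each value. Carrier and enzyme therefore differed between the groups in opposite directions. The ratio of Rdh10 to Crabp2 RPKM within a sample was 0.809 and 0.824 in si-SCR 1 and 2 and 4.01 and 3.92 in si-SMaRT 1 and 2.

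Among the receptors of retinoic acid, Rara (RARα, chr11:98927818-98974942, plus strand) measured 4.92 and 6.74 RPKM in si-SCR 1 and 2 and 10.1 and 4.43 RPKM in si-SMaRT 1 and 2. The highest and the lowest sample were both si-SMaRT samples, so the groups overlapped. The log2 fold change was 0.22 (SE 0.35) between means of 5.83 ± 1.29 and 7.28 ± 4.02 RPKM (SD, n = 2). Rarg (RARγ, chr15:102234938-102257517, minus strand) measured 6.29 and 8.35 RPKM in si-SCR 1 and 2 and 9.29 and 5.71 RPKM in si-SMaRT 1 and 2. It showed the same order of samples, with a log2 fold change of 0.01 (SE 0.30) between means of 7.32 ± 1.46 and 7.50 ± 2.53 RPKM (SD, n = 2).

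The retinoid X receptors ordered the samples in this way too. Rxra (RXRα, chr2:27676440-27762957, plus strand) measured 5.32 and 6.56 RPKM in si-SCR 1 and 2 and 9.68 and 5.27 RPKM in si-SMaRT 1 and 2. Its log2 fold change was 0.27 (SE 0.31) between means of 5.94 ± 0.870 and 7.48 ± 3.12 RPKM (SD, n = 2). Rxrb (RXRβ, chr17:34031812-34038399, plus strand) measured 7.69 and 9.15 RPKM in si-SCR 1 and 2 and 9.84 and 4.74 RPKM in si-SMaRT 1 and 2. It was the only receptor with a lower mean in si-SMaRT, at 7.29 ± 3.61 against 8.42 ± 1.03 RPKM (SD, n = 2), a log2 fold change of -0.29 (SE 0.33). The 4 receptor genes rested on 251 to 597 reads a sample, where the reads of Rarg and Rxrb are lower limits. None of the 6 genes shared exons with another annotated gene, and Rara was the only one with another gene, Gm22061, inside its span.

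**Figure D1:**
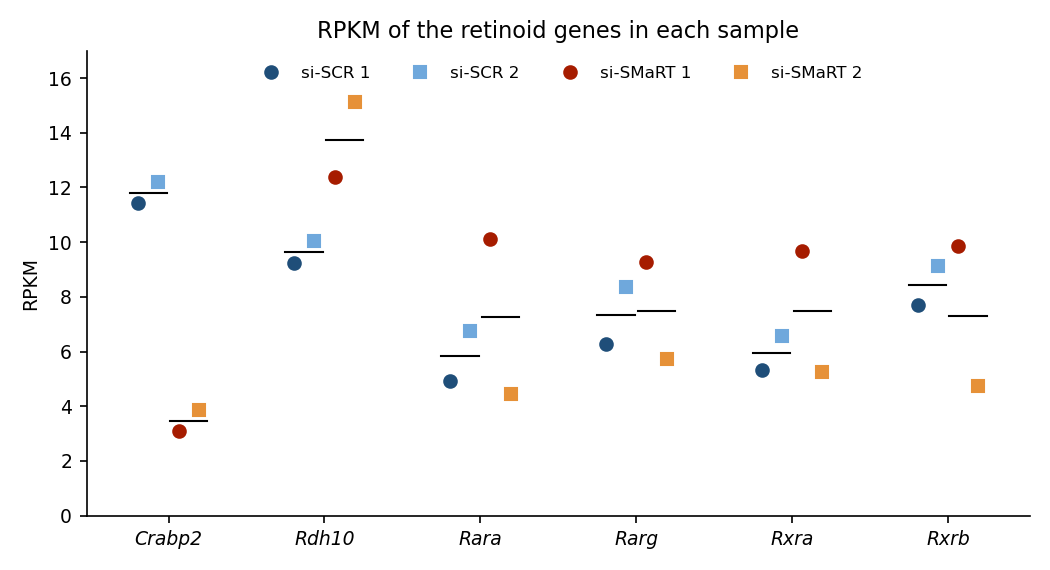
RPKM of the 6 retinoid genes (x axis) in each of the 4 samples (y axis, linear, from 0). Circles are replicate 1, squares replicate 2, blue is si-SCR, red and orange are si-SMaRT, and black lines are group means of 2 samples; the groups lie apart for Crabp2 and Rdh10, while for each receptor si-SMaRT 1 is the highest and si-SMaRT 2 the lowest sample.

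In counts, the groups did not overlap for 2 of the 6 members, Crabp2 and Rdh10, against 40.7% of the 11086 genes tested. Of the 6, Crabp2 was the only one past an adjusted p of 0.05 in the fit across all genes, in which 0.505% of genes (20 higher and 36 lower) passed. The members were chosen with this contrast in view, so neither count is evidence about the family. Without si-SCR 1, or without si-SCR 2, Crabp2 was no longer past the threshold, although its log2 fold change stayed at -1.79 and -1.70. Without si-SMaRT 1 or si-SMaRT 2 the log2 fold change was -1.59 and -1.90.

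The receptors moved together from sample to sample. The sum of Rara, Rarg, Rxra and Rxrb was 24.2 and 30.8 RPKM in si-SCR 1 and 2 and 38.9 and 20.2 RPKM in si-SMaRT 1 and 2, so that it was 1.93 times higher in si-SMaRT 1 than in si-SMaRT 2. Within a sample the balance of RXR to RAR was 1.16 and 1.04 in si-SCR and 1.01 and 0.987 in si-SMaRT. The groups did not overlap, and the log2 ratio of the si-SMaRT mean over the si-SCR mean was -0.14. Among the pairs of members, Rara and Rxra had the most similar pattern. Their root mean square difference over the 4 samples was 0.12 on the log2 scale after each gene was centred on its own mean, with 147 of the tested genes closer to Rara. The balance within the RXR genes differed by more, with a log2 ratio of the means of 0.57. Rxra stood at 0.692 and 0.717 times the RPKM of Rxrb in si-SCR 1 and 2 and at 0.983 and 1.11 times in si-SMaRT 1 and 2, also without overlap. How often such ratios do not overlap over all genes was not computed. The balance within the RAR genes overlapped, with Rara at 0.783 and 0.807 times Rarg in si-SCR and at 1.09 and 0.776 times in si-SMaRT.

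Set against its receptors, the carrier was near parity in control cells. Crabp2 stood at 1.02 and 0.808 times the sum of Rara and Rarg in si-SCR 1 and 2, and at 0.159 and 0.380 times in si-SMaRT 1 and 2. The spread within si-SMaRT here came more from the receptors than from the carrier, which differed by a ratio of 0.799 between si-SMaRT 1 and 2 while Rara differed by a ratio of 2.28.

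In si-SCR the order of the mean levels was Crabp2, Rdh10, Rxrb, Rarg, Rxra and Rara. The ranges of the 2 samples did not overlap between Crabp2 and Rdh10 or between Rdh10 and Rxrb, while each later neighbour overlapped with the next. All 6 lay in the middle of the expression range, from the 45.8th percentile for Rara to the 64.7th for Crabp2 among all genes or joined genes of the expression data. In si-SMaRT the order was Rdh10, Rarg, Rxra, Rxrb, Rara and Crabp2, so that the carrier went from the highest to the lowest level of the family. In that group Rdh10 did not overlap with Rarg, nor Rara with Crabp2, and the 4 receptors between them overlapped from one neighbour to the next.

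The distance between the si-SMaRT replicates followed the base composition of the genes. Across the 10018 tested genes with a known exon content of G and C, the log2 difference of si-SMaRT 2 minus si-SMaRT 1 had a Spearman correlation of -0.844 with that content, and the difference of si-SCR 2 minus si-SCR 1 one of 0.354. These correlations run across genes of the same libraries, which are not independent replicates. The median size of the difference was 0.42 between the si-SMaRT replicates and 0.19 between the si-SCR replicates. By the authors' read counts, their filter for ribosomal and transfer RNA removed many more read pairs from si-SMaRT 1 than from any other sample with RPKM values. Whether this bears on the difference was not tested.

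All 4 receptors are rich in G and C. Their exon content was 61.2% for Rara, 60.6% for Rxrb, 58.7% for Rarg and 57.3% for Rxra, and 98.2%, 97.7%, 94.2% and 90.2% of genes, in that order, had a lower one. Between si-SMaRT 2 and 1 they differed by -1.17 (Rara), -1.04 (Rxrb), -0.69 (Rarg) and -0.86 (Rxra) on the log2 scale. The 972 genes with a content of 57 to 62% had a median difference of -0.83, so the receptors lay where genes of their composition lay. Groups did not overlap for 27.7% of these genes.

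The other members had a lower content of G and C. Of these, Crabp2 alone differed in sign from the median of genes of like content. Rdh10, at 45.7%, had a difference of 0.29 between si-SMaRT 2 and 1, beside a median of 0.24 in the 2163 genes with a content of 44 to 48%. Crabp2, at 52.0%, had a difference of 0.31, while the 2058 genes with a content of 50 to 54% had a median of -0.27. The si-SCR replicates of Crabp2 differed by 0.10. Groups did not overlap for 47.2% of the genes with a content of 44 to 48% and for 50.6% of those with 50 to 54%.

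**Figure D2:**
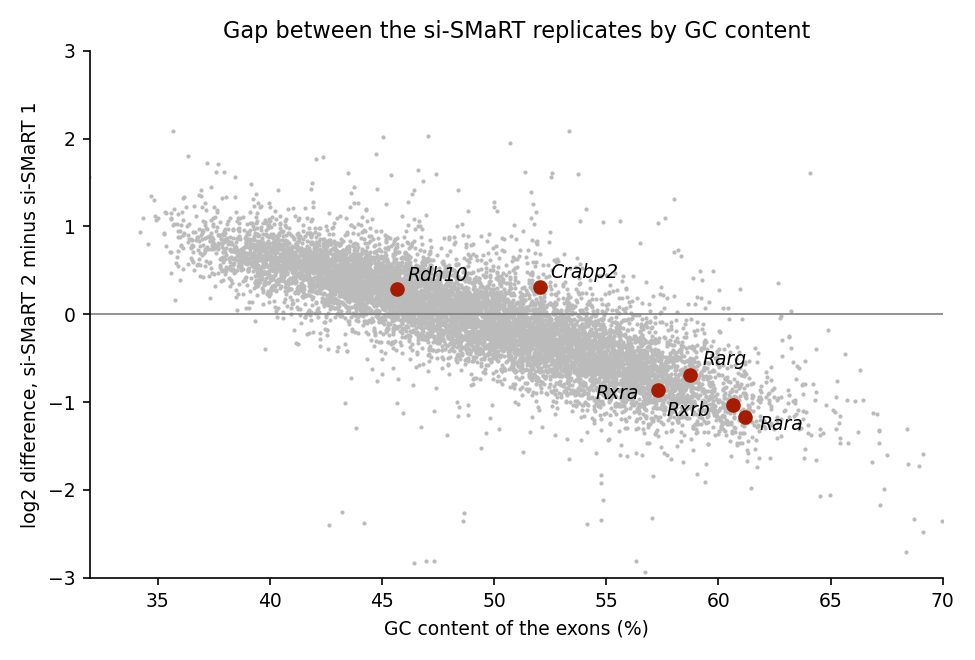
Log2 difference in RPKM between si-SMaRT 2 and si-SMaRT 1 (y axis) against the content of G and C in the exons (x axis, %), with 1 grey point per tested gene and the 6 retinoid genes in red. The cloud slopes downward, with a Spearman correlation of -0.844 over 10018 genes. The 4 receptors sit at its lower right. Crabp2 lies within it, in the upper part for its content, where other genes lie higher still. Outside the axes lie 28 genes.

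When the trend of each sample with base composition was removed by a loess fit, the receptor values of the si-SMaRT replicates came together. The difference of si-SMaRT 2 minus 1 became -0.29 for Rara, 0.06 for Rarg, -0.21 for Rxra and -0.19 for Rxrb. The log2 fold changes then were 0.42 (SE 0.17) for Rara, 0.19 (SE 0.15) for Rarg, 0.44 (SE 0.15) for Rxra and -0.09 (SE 0.15) for Rxrb. Rdh10 remained higher by 0.43 (SE 0.14) and Crabp2 lower by a log2 fold change of -1.67 (SE 0.19). On this scale the groups did not overlap for 5 of the 6 members, all but Rxrb, against 56.5% of 10018 genes. The replicates of Crabp2 moved apart on this scale, to a difference of 0.52 between si-SMaRT 2 and 1, and still both lay below both si-SCR samples.

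**Figure D3:**
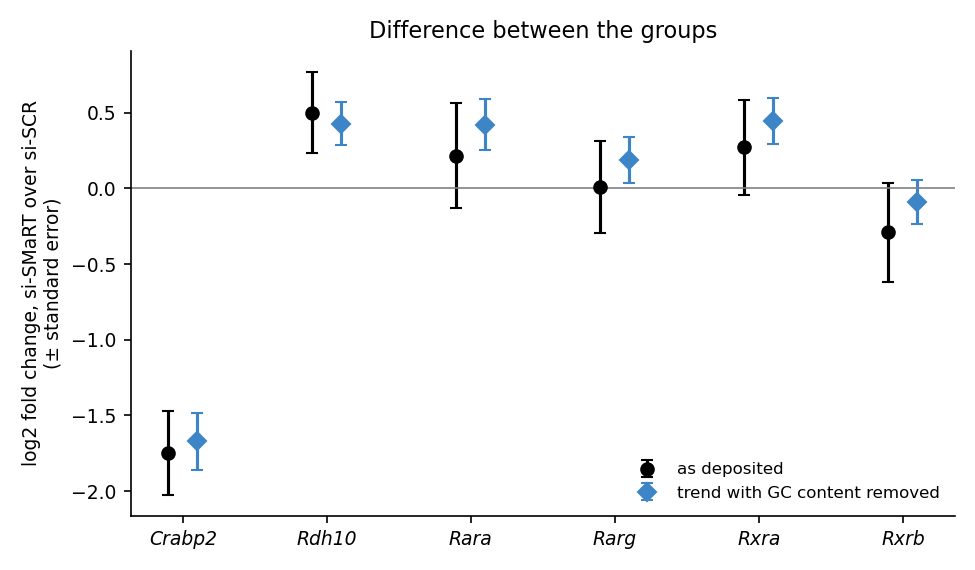
Log2 fold change of si-SMaRT over si-SCR (y axis) for each retinoid gene (x axis), from the RPKM values as deposited (black circles) and with the trend with G and C content removed (blue diamonds), where bars are ± 1 standard error of the limma fit over 2 samples a group. Crabp2 is at -1.75 and -1.67, Rdh10, Rara and Rxra are above 0 and Rxrb is below 0 in both. Rarg is at 0.01 as deposited and at 0.19 with the trend removed. As deposited, the bars of all receptors span 0, and they are shorter once the trend is removed.

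The direction of the receptors also depended on which si-SMaRT sample was used. Without si-SMaRT 1, the log2 fold changes were -0.37 for Rara, -0.34 for Rarg, -0.16 for Rxra and -0.81 for Rxrb, all below 0. Without si-SMaRT 2, they were 0.80, 0.35, 0.70 and 0.23 in the same order, all above 0. Crabp2 remained below and Rdh10 above si-SCR in each case, with Rdh10 at 0.64 and 0.36.

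The promoters of the listed genes, from 250 bases before to 50 bases after an annotated start, shared the base composition of the exons in part (RefSeq, GRCm38.p6). They were 12 promoters, 1 of them of Crabp1 and the rest of the 5 receptor genes, and promoters of Crabp2 and Rdh10 were not analysed here. The content of G and C ran from 51.7% for a promoter of Rarg to 83% for a promoter of Rxra. The latter held 55 CpG sites and those of Rxrb 37 and 47, against a median of 7 over all 32851 promoters. A half-site for retinoic acid receptors (AGGTCA or AGTTCA or GGGTCA or GGTTCA, on either strand) was in at least 1 promoter of Rara, Rarb, Rarg and Rxra. Rara, Rarg and Rxra also had promoters without it. Of all promoters 43.7% held a half-site, a share by promoter that cannot be set beside a count by gene. A pair of half-sites in direct repeat, spaced by 1, 2 or 5 bases, was in 0.588% of all promoters and, among those of the listed genes, in that of Rarb alone, a gene known to be induced by retinoic acid through such a repeat. A match of letters is not evidence of binding.

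The genes with a pattern most like that of Crabp2 were Lefty1, Ctsc, Cap2, 2310002L09Rik and Cox8b, with root mean square differences of 0.0904 to 0.203 over the 4 samples on the log2 scale. Lefty1, a secreted antagonist of Nodal signaling, measured 1.57 and 1.53 RPKM in si-SCR and 0.403 and 0.477 RPKM in si-SMaRT, from 8 and 12 reads in the latter. Cox8b, a subunit of cytochrome c oxidase found in muscle, was the most abundant, at 114 and 93.2 RPKM in si-SCR and 35.5 and 36.1 RPKM in si-SMaRT. The log2 fold changes of the 5 ran from -1.91 for Ctsc, a lysosomal protease, to -1.37 for 2310002L09Rik. They were picked for this likeness, which is therefore no further result.

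The wider retinoid pathway was read from 94 other genes in 6 lists, of which 52 had a value and 49 were tested. Of these 49, 0 passed the threshold in either direction (limma), 0 passed with voom on the reads recovered from the RPKM values, and 6 had an unadjusted p under 0.05. By their means, 28 were higher and 21 lower in si-SMaRT. Their median log2 fold change was 0.12, where 52.3% of all tested genes were higher and their median was 0.02. Groups did not overlap for 28 of the 49, or 57.1%, against 40.7% of all tested genes. That share varied with base composition, and it was not computed for genes composed like those of any list. Some genes stand in a pair of lists, Dhrs3 and Nrip1 among them.

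Enzymes of retinoid synthesis and storage had mostly lower means in si-SMaRT. By means, 12 of the 13 tested were lower and 1 was higher, around a median log2 fold change of -0.26, with 7 without overlap (40.7% over all genes) and 0 past the threshold. Aldh1a3, which makes retinoic acid from retinaldehyde, measured 0.753 and 0.797 RPKM in si-SCR and 0.269 and 0.590 RPKM in si-SMaRT (log2 fold change -0.79, SE 0.38, limma adjusted p = 0.558). The short-chain dehydrogenase Dhrs7 had a log2 fold change of -0.58 and the aldo-keto reductase Akr1b3 one of -0.57. Akr1b8, of the same reductase family, was among the most abundant of the list, at 170.3 and 148 RPKM in si-SCR and 125 and 133 RPKM in si-SMaRT. Rdh10 thus lay above si-SCR in both si-SMaRT samples while most other enzymes lay below in their means. The hydroxylases that break down retinoic acid, Cyp26a1, Cyp26b1, Cyp26c1 and Cyp2s1, were not analysed here.

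Of the other carriers, Fabp5, a fatty acid binding protein that can also carry retinoic acid, measured 10.9 and 8.41 RPKM in si-SCR and 10.7 and 10.2 RPKM in si-SMaRT. Its groups overlapped, with a log2 fold change of 0.12 (SE 0.27). The difference between this carrier and Crabp2 was not tested.

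The other nuclear receptors that pair with RXR were 2 higher and 4 lower by mean among 6 tested, with a median log2 fold change of -0.20 and 0 past the threshold. Nr4a1, an orphan receptor induced early by growth signals, measured 2.33 and 2.92 RPKM in si-SCR and 1.43 and 1.19 RPKM in si-SMaRT, without overlap (log2 fold change -0.95, SE 0.31, limma adjusted p = 0.258). Nr1h2, the oxysterol receptor LXRβ, measured 8.43 and 10.05 RPKM in si-SCR and 11.2 and 5.13 RPKM in si-SMaRT. It thus had the order of samples seen in the retinoid receptors. Thra and Vdr, the receptors for thyroid hormone and vitamin D, had log2 fold changes of 0.27 (SE 0.30) and 0.38 (SE 0.32), both with overlap.

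Coactivators and corepressors had mostly higher means in si-SMaRT (16 of 18 higher and 2 lower). The groups of 11 did not overlap (40.7% over all genes), their median log2 fold change was 0.36 and 0 passed the threshold. Ncoa1, a coactivator with affinity for many nuclear receptors, measured 4.10 and 5.20 RPKM in si-SCR and 7.78 and 8.70 RPKM in si-SMaRT (log2 fold change 0.82, SE 0.28, limma adjusted p = 0.286). Carm1, an arginine methyltransferase that works with such coactivators, measured 3.73 and 3.96 RPKM in si-SCR and 7.35 and 4.70 RPKM in si-SMaRT, without overlap. Crebbp, an acetyltransferase of the same complexes, had a log2 fold change of 0.62 (SE 0.29). The most abundant of the list were Prmt1 and Hdac3, at log2 fold changes of -0.26 and -0.03, and these were the 2 with a lower mean.

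Genes known to respond to retinoic acid were 10 higher and 3 lower by mean among 13 tested, with a median log2 fold change of 0.34, 10 without overlap (40.7% over all genes) and 0 past the threshold. Tgm2, a transglutaminase, measured 19.5 and 19.9 RPKM in si-SCR and 12.4 and 6.76 RPKM in si-SMaRT (log2 fold change -1.10, SE 0.30, limma adjusted p = 0.156). Nr2f2, the orphan receptor COUP-TFII, measured 0.878 and 0.989 RPKM in si-SCR and 1.44 and 1.94 RPKM in si-SMaRT (log2 fold change 0.78, SE 0.32, limma adjusted p = 0.442). Nrip1, a corepressor that is itself induced by the ligand, had a log2 fold change of 0.57 (SE 0.30), and Rai14, the most abundant of the list with Tgm2, one of 0.16 (SE 0.26). The genes with the largest differences on the list thus lay on both sides of 0.

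With the trend with base composition removed, 3 of 46 tested pathway genes passed the threshold, beside 5.13% of all 10018 genes in that fit, a share that the count is close to. These were Tgm2, which fell by 0.93 on the log2 scale (limma adjusted p = 0.00972), Carm1, which rose by 0.77 (limma adjusted p = 0.0234) and Ncoa1, which rose by 0.81 (limma adjusted p = 0.0300). Without si-SMaRT 1, 11 of 49 passed, beside 26.2% of all genes, and without si-SMaRT 2, 5 of 49, beside 8.49% of all genes, among them Tgm2, Ncoa1 and Nr4a1 in both.

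**Figure D4:**
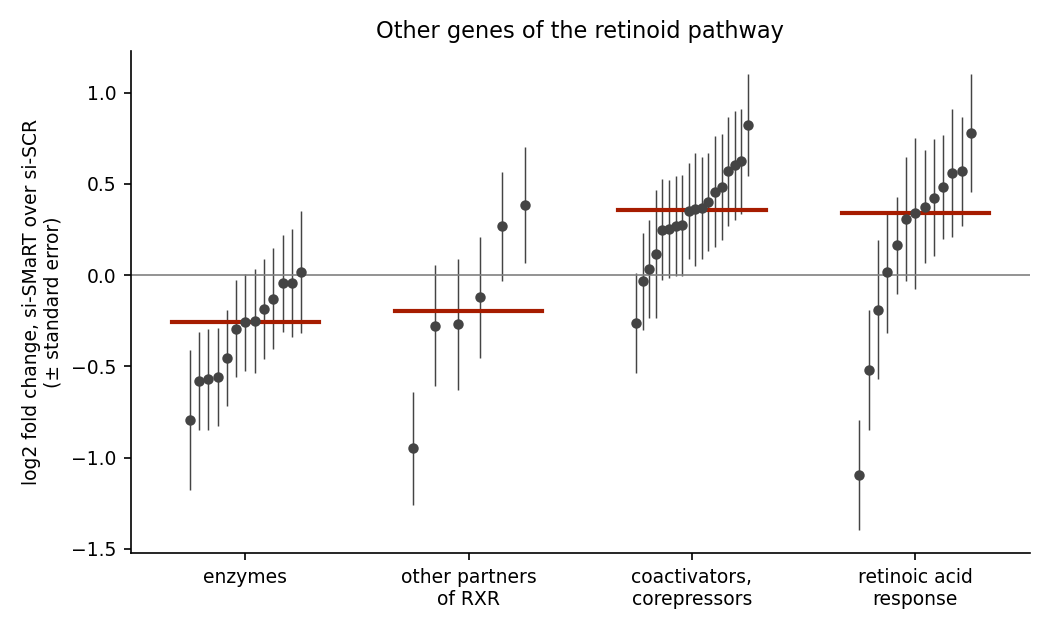
Log2 fold change of si-SMaRT over si-SCR (y axis) for the tested genes of 4 lists of other retinoid pathway genes (x axis), ordered within each list, with bars of ± 1 standard error of the limma fit over 2 samples a group and red lines at the list medians. The medians run from -0.26 for the enzymes to 0.36 for the coactivators and corepressors, and 0 of the genes shown passed the threshold.

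The samples were checked for the labelled cell type and for others. Of 12 symbols for skeletal muscle markers, 11 were found, which is every gene of the list, since Mymk is listed under its older symbol Tmem8c. Their summed level was 13602 and 13692 RPKM in si-SCR 1 and 2 and 9174 and 6493 RPKM in si-SMaRT 1 and 2. By means, 10 of the 11 were lower in si-SMaRT, 9 of the 11 markers had no overlap, against 40.7% of all genes, and 0 passed the threshold. With the trend with base composition removed, 2 of the markers passed, in a fit in which 5.13% of all genes did. The median log2 fold change of the markers was -0.65, in the direction of Crabp2 and smaller in size. Whether the level of Crabp2 moved with the extent of differentiation was not tested, and fewer cells of a type and less RNA per cell cannot be told apart in bulk samples.

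Of the leukocyte markers 2 of 7 were found, at summed levels of 1.63 and 1.34 RPKM in si-SCR and 1.34 and 1.14 RPKM in si-SMaRT. Of the epithelial markers 1 of 4 was found, Krt14, at 5.71 and 2.74 RPKM in si-SCR and 1.81 and 0.676 RPKM in si-SMaRT. Its part in the difference of Crabp2 was not tested. The endothelial, adipocyte and osteoblast markers were not analysed here.

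The pull-down of lnc-SMaRT gave a readout that the choice of the members did not use. Of 345 peaks with the lnc-SMaRT probes and 336 with the LacZ probes, 0 and 0 lay on exons of the 8 listed genes, where 1 shared base on the strand of the gene was enough. The numbers stayed at 0 over gene bodies with introns and on either strand. On the exons of lnc-SMaRT itself lay 4 peaks of its own probes and 0 of the LacZ probes. With 1 library a probe set and no depth in the peak lists, this says only that no listed peak fell on these genes.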

How the data were processed

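The members and lists were chosen with earlier results of these data known. Total RNA was sequenced in 4 samples, and pull-down RNA in 3. The deposited RPKM values, scaled to gene length and library size, were made by the authors with Trimmomatic, Bowtie 2, TopHat2 on GRCm38, htseq-count on Ensembl genes, a CPM filter and TMM in edgeR. The p-value of each deposited peak came from Piranha as run by the authors (bins of 200 bases), and the lists do not state whether the input was a covariate.

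The values are whole multiples of 1 read for each gene, within 0.001 reads, in 11642 of 11642 genes or joined genes (100%). For 5904 the gene length set the number of reads, and for 5738 it is a lower limit. The effective library sizes were 11291255 to 14312935 reads. Counting error alone limits a value of few reads, such as the 46 of Crabp2 in si-SMaRT 1. Of the 11642, 576 joined overlapping genes, none of them with a member, but with Rdh5, Rdh13 and Meis1 of the pathway lists, whose values may hold the reads of a neighbour too.

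Log2(RPKM + 0.1) of genes whose mean reached 0.5 RPKM was fitted in limma 3.58.1 (R 4.3.3, moderated variances with a trend), and adjusted p-values (Benjamini-Hochberg) were called under 0.05, because RPKM values are not fit for a count test. Scripts were tested on simulated data. Named were all members, Gm14635, pathway genes past the threshold, the 3 with the largest absolute fold change and the 2 most abundant of each list, the 5 genes most like Crabp2, and markers. Alternatives were pseudocounts of 1 and 0.01, no filter or a mean RPKM of 5, quantile normalization, no trend, a block for the replicate number, omission of each sample, removal of the trend with G and C content (loess, span 0.3), voom on recovered reads, and a crossed block, added after seeing the data. Lengths and base composition came from GENCODE M21, with a value for 90% of genes. Other steps ran in Python 3.11.15 with pandas 2.3.3, numpy 2.4.6, matplotlib 3.10.9 and scipy 1.17.1. Values of a withheld gene are left out of the text.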

Additional observations from a re-analysis of the deposited data

How the results depend on the processing

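The log2 fold change of Crabp2 was below 0 (-1.90 to -1.52) and that of Rdh10 above 0 (0.36 to 0.64) in all 14 alternatives. Those of the receptors were -0.37 to 0.80 for Rara, -0.34 to 0.35 for Rarg, -0.16 to 0.70 for Rxra and -0.81 to 0.23 for Rxrb, with 2, 3, 1 and 13 of 14 below 0. That of lnc-SMaRT stayed past the threshold throughout, at -2.55 to -2.11. The 56 genes past the threshold became 37 with quantile normalization, 103 with voom, 514 with the trend with G and C content removed and 49 to 69 with the other pseudocounts, filters and prior. With each sample left out in turn there were 24 to 2908 (24 without si-SCR 1, 30 without si-SCR 2, 2908 without si-SMaRT 1 and 941 without si-SMaRT 2), where a lone sample was assumed to vary like the other group. Of the pathway genes, 0 became 3 with the trend removed and 0 to 11 with each sample left out. The members whose groups did not overlap, 2, became 5 with the trend removed and 2 to 6 with each sample left out. The count was 6 without si-SMaRT 1 and 6 without si-SMaRT 2. A lone sample overlaps less readily with the other group, and the share of all genes was not computed for these settings. For each receptor, si-SMaRT 1 was the highest and si-SMaRT 2 the lowest sample, so leaving out either one removed the overlap. The cause of the other shifts was not tested. The order of levels was settled for 2 neighbours in either group, and peaks on the members stayed at 0.

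Same-numbered replicates had a correlation of deviations of -0.362 over 11086 genes (-0.189 with the trend removed). Whether the replicate numbers pair the cultures cannot be told from these values, and the main fit used no pairing. With the replicate block, 96 genes and 0 pathway genes passed, and 179 and 1 with the trend also removed. With the crossed block, added after seeing the data, 487 and 3 passed. The 46 reads of Crabp2 and 8 of Lefty1 in si-SMaRT 1 limit the precision of these values.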
